A study of Mus musculus with 3 samples.

Results

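Netrins are secreted guidance cues that growing axons read through receptors of the Dcc and Unc5 families. The 9 genes described here encode the ligands netrin-1 (Ntn1) and netrin-4 (Ntn4), the attractive receptor gene Dcc and its relative Neo1, the 4 repulsive receptor genes Unc5a, Unc5b, Unc5c and Unc5d, and Dscam, a cell adhesion molecule that also binds netrin-1. They were examined in a map of Atoh7 binding sites from mouse retina, a list of 3668 CUT&RUN peaks. A peak was counted for a gene when its midpoint lay inside the RefSeq gene body or within 100 kb of it. By this rule 12 peaks belonged to the 9 genes, of 3662 that lay on the autosomes or X, where the gene table has 21631 protein-coding genes.

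Atoh7 is a basic helix-loop-helix transcription factor of retinal progenitors that are leaving the cell cycle, and it is needed for most retinal ganglion cells. The axons of these cells grow along the inner retina to the optic disc, where netrin-1 is a known exit cue read through Dcc. Unc5 receptors turn the response to netrin into repulsion, Neo1 also binds repulsive guidance molecules, and Dscam takes part in the spacing of retinal neurites as well as in guidance.

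All 3 libraries came from retina of C57Bl6/J mice at embryonic day 14. An Atoh7 antibody was used for 2 of them and control IgG for the other, and no genetic change or treatment is given for any of them. In CUT&RUN an antibody directs a nuclease that cuts out the DNA beside the bound protein. The list holds positions and widths with no value per library, no peak height and no IgG value, so depth is unknown and spread between libraries could not be measured. The intervals below cover the counting of peaks alone, and no test was run. Of 5 genes of the neurogenic programme read as a check of the list, Atoh7, Neurog2, Neurod1 and Hes6 had a peak centred within 1 kb of an own end, against 4.3% of protein-coding genes, and Dll1 did not. The peak closest to an end of Dll1 was centred 2060 bp from it. Dll1 had 5 peaks in the body or within 100 kb, 1 of them in the body. RNA markers of the tissue could not be read from the list.

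Of the 9 genes, 6 had a peak in the body or within 100 kb, against 34.9% of all protein-coding genes. Dscam and Neo1 had 3 peaks each, Ntn4 and Unc5c had 2 each, and Dcc and Unc5a had 1 each. Ntn1, Unc5b and Unc5d had none. In the gene body itself 4 of the 9 held a peak, against 7.17% of all protein-coding genes. These were Dscam with 3, Unc5c with 2, and Dcc and Ntn4 with 1 each, 7 peaks in all. The other 5 peaks lay in flanks, and each of them was nearer to another protein-coding gene. Long genes catch more peaks, so these shares are set against genes of like length further on.

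**Figure D1:**
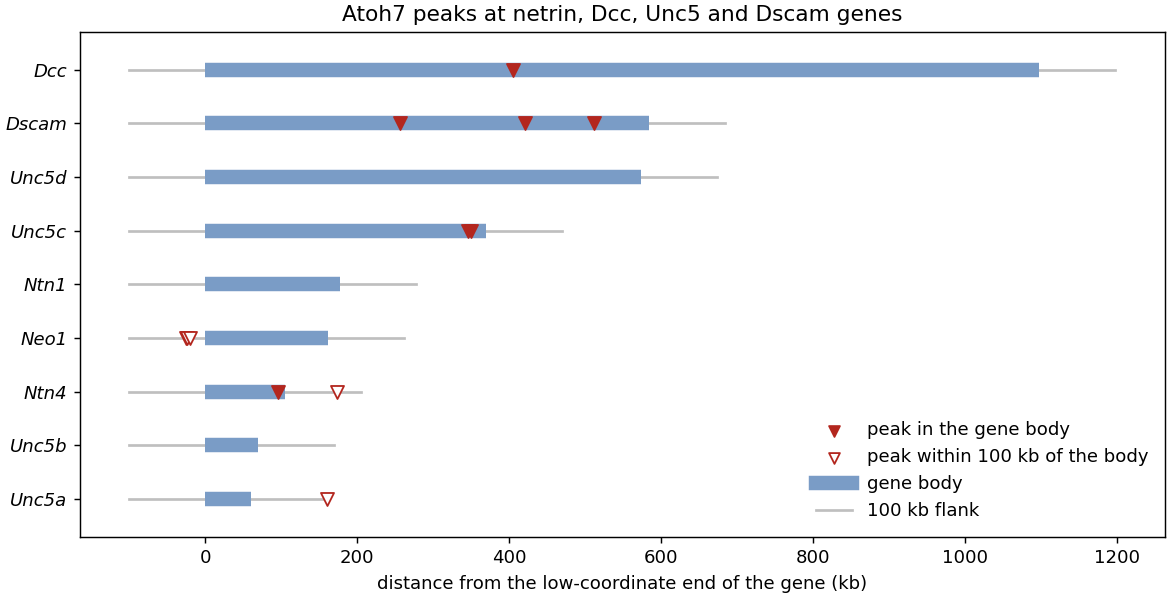
Positions of peaks along the 9 genes, drawn to scale from the low-coordinate end of each gene (x axis, kb), with genes ordered by length. Filled triangles are the 7 peaks in gene bodies and open triangles the 5 peaks in the 100 kb flanks. The rows of Unc5d, Ntn1 and Unc5b are empty, and the paired Unc5c triangles and the Neo1 group overlap at this scale.

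Among the ligand genes, Ntn1 lay in a stretch without peaks. Ntn1 (gene ID 18208) spans 177 kb on chromosome 11, from 68209364 to 68386826 in mm10. The nearest peak on the low-coordinate side was 620 kb away, inside Gas7, and the nearest on the other side was 515 kb away, 0.111 kb from the ribosomal protein gene Rpl26. The names of peaks carry running numbers that rise along the list, and the numbers on both sides of Ntn1 are 958 and 960. If the numbers were given to calls in genome order, at most 1 call in these 1310 kb was left out of the list.

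Ntn4 (gene ID 57764; chromosome 10, 93641049 to 93745972; plus strand) held 1 peak in its 105 kb body. That peak ran from 93736245 to 93736650, was 406 bp wide and lay 90.9% of the way along the gene, 9.52 kb from its far end. It was the body peak closest to an end of its own gene among the 7. The second Ntn4 peak, at 93813666 to 93813967 (302 bp), lay 67.8 kb beyond the gene and 6.15 kb from Usp44, a deubiquitinase gene. Neither peak was near the Ntn4 start site, the distances being 95.4 and 173 kb.

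Dcc (gene ID 13176; chromosome 18, 71253613 to 72351228) is the longest of the 9 genes, 1097616 bp, and held a single peak of 394 bp at 71657980 to 71658373. That peak was 405 kb from the nearer end of the gene and 983 kb from the next listed peak. Of protein-coding genes over 500 kb, 46.7% held at least 1 peak in the body, so the single Dcc peak is what many genes of this length show.

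Neo1 (gene ID 18007; chromosome 9, 58874679 to 59036614; minus strand) had no peak in its 162 kb body. Its 3 peaks lay beyond the low-coordinate end, which is the far end from the start site, at distances of 24.8, 23.8 and 19.5 kb. They ran from 58849568 to 58850234 (667 bp), from 58850681 to 58851057 (377 bp) and from 58854945 to 58855365 (421 bp). All 3 were inside Hcn4, which encodes a hyperpolarisation-activated cation channel and spans 58822949 to 58863175. The first 2 midpoints were 0.968 kb apart and the third was 4.29 kb further on. They were 181 to 187 kb from the Neo1 start site, so their count for Neo1 rests on the 100 kb distance and not on nearness.

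Unc5c (gene ID 22253; chromosome 3, 141465564 to 141834924; plus strand) was the one Unc5 gene with peaks in its body. The first ran from 141810793 to 141811227 (435 bp) and the second from 141814322 to 141815387 (1066 bp), with midpoints 3.84 kb apart. They lay 93.5% and 94.6% of the way along the 369 kb gene, 345 and 349 kb from its start site. The wider one ranked 17 by width among the 3662 peaks, and 0.464% of them were at least as wide. Another peak lay 127 kb before the gene, just outside the 100 kb limit, and the next one past its far end was 2620 kb away.

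Unc5a (gene ID 107448; chromosome 13, 54945151 to 55006018; plus strand) was counted through 1 peak just inside the limit. This 353 bp peak, at 55105112 to 55105464, lay 99.3 kb from Unc5a and 0.017 kb from an end of the zinc finger gene Zfp346. It was the one member peak of 12 within 1 kb of any annotated gene end. The next peak on that side was 163 kb from Unc5a, 0.52 kb from the growth factor receptor gene Fgfr4.

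Unc5b and Unc5d had no peak under the rule. Unc5b (gene ID 107449; chromosome 10, 60762594 to 60831581; minus strand), a receptor gene also known from blood vessels, was 415 kb from the nearest peak, which lay inside Cdh23. On the other side the nearest was 1390 kb away, inside Tspan15. Unc5d (gene ID 210801; chromosome 8, 28646717 to 29219671) is 573 kb long, close to Dscam in length, and was 325 kb from its nearest peak and 2170 kb from the nearest on the other side. The running numbers allow at most 7 calls between the listed neighbours of Unc5b (1870 kb) and at most 6 between those of Unc5d (3070 kb) to have been left out, on the same reading of the numbers. The places of numbers that are absent are unknown, so they cannot be assigned to either gene. For 8 of the 9 genes, all but Dscam, a listed peak lay beyond the 100 kb limit on both sides. The stretches between those peaks held 37 numbers, of which 28 were absent and 9 listed. Thus 24.3% were present, against 51.1% in the whole list. The peaks that bound each stretch are not counted, which lowers that share, and the difference was not tested.

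Dscam (gene ID 13508; chromosome 16, 96587452 to 97171113; minus strand) held 3 separate peaks in its 584 kb body. They ran from 96843817 to 96844171 (355 bp), from 97008083 to 97008336 (254 bp) and from 97098533 to 97098835 (303 bp). Along the direction of transcription they lay at 56.0%, 27.9% and 12.4% of the gene, 327, 163 and 72.1 kb from the start site. Unlike the Unc5c pair they were spread out, with 90.5 kb between the closest 2, and all were narrower than the list's median width of 381 bp. No listed peak followed them on chromosome 16, and on the low side the next was 1470 kb from the low-coordinate end of the gene.

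Set against gene length, 6 of the 7 body peaks lay in the 4 genes over 200 kb and 1 in the 5 shorter genes. At the peak densities of their length classes, single genes would hold from 0.12 (Unc5a) to 1.13 (Dcc) peaks. Single counts this low cannot show whether a gene departs from its length. Dcc, the longest, had 1 peak, Dscam and Unc5d at 584 and 573 kb had 3 and 0, and Unc5c at 369 kb had 2. Of the 5 genes under 200 kb, Ntn4 held 1 peak and Ntn1, Neo1, Unc5b and Unc5a none. The rank correlation of body count with length was 0.55 over the 9 genes and 0.253 over all 21631 protein-coding genes, given as a description with many tied counts. Shares of genes with a body peak rose with length, from 11.4% of genes of 50 to 100 kb (the class of Unc5a and Unc5b) to 20.5% at 100 to 200 kb (Ntn1, Ntn4 and Neo1), 32.8% at 200 to 500 kb (Unc5c) and 46.7% over 500 kb (Dcc, Unc5d and Dscam). With 100 kb flanks included, the share of genes with a peak rose less, from 37.0% at 50 to 100 kb to 41.4%, 46.0% and 51.5% in the longer classes. Added over the 9 genes, the class shares for bodies give 2.57 genes with a body peak, where 4 were counted.

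**Figure D2:**
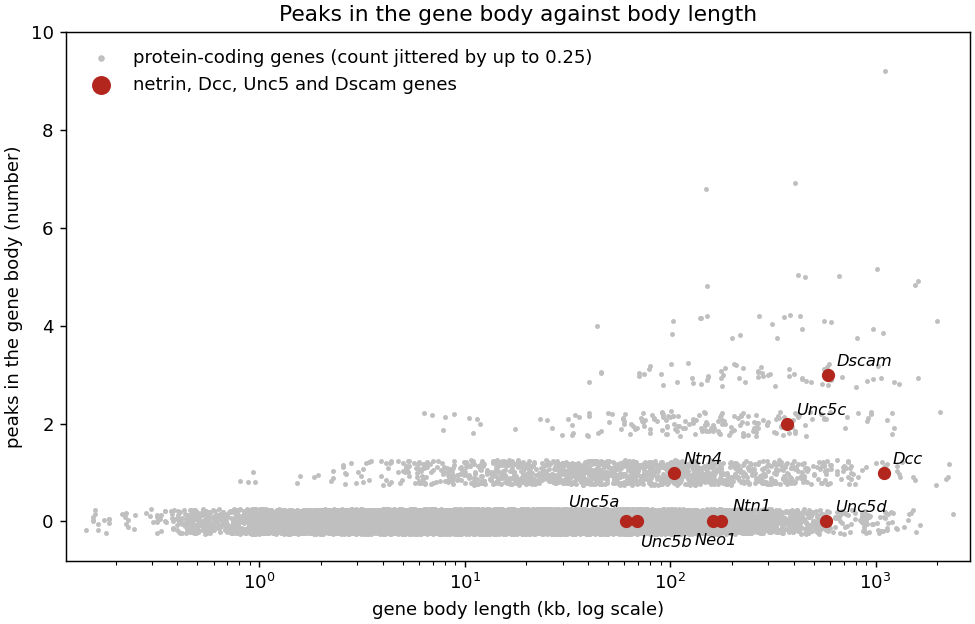
Number of peaks in the gene body (y axis) against body length in kb (x axis, log scale) for protein-coding genes in grey and the 9 genes in red. Grey points are shifted by up to 0.25 in height for visibility, and 2 genes above 10 peaks are not drawn. Dscam with 3 peaks and Unc5c with 2 are the highest of the 9, Dcc and Ntn4 have 1 each, and the other 5 are at 0.

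Within its length class, 11.9% of genes had at least as many body peaks as Dscam, and 11.8% had at least as many as Unc5c. For Ntn4 the share was 20.5%. Counting flanks too, 5.22% of genes of 100 to 200 kb had at least as many peaks as Neo1, although its 3 peaks lie in Hcn4. The median gene held 0 body peaks in every length class that holds a member, and the median of the 9 was also 0.

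Per length, the bodies of the 9 genes held 2.19 peaks per Mb (7 peaks in 3.2 Mb, exact 95% Poisson interval 0.88 to 4.51). All protein-coding gene bodies merged held 1.91 per Mb (1.83 to 2.0), a value inside that interval. The density of genes over 500 kb was lower, 1.03 per Mb (0.889 to 1.18). At the densities of their own length classes the 9 bodies would hold 4.15 peaks, against 7 counted with an exact 95% Poisson interval of 2.81 to 14.4. The difference is within counting error. With flanks the 9 genes held 2.4 per Mb (1.24 to 4.19), against 1.71 (1.65 to 1.77) for all protein-coding genes with flanks. Counting only peaks for which the member was the nearest protein-coding gene gave 7 peaks and 1.4 per Mb of the same sequence. These are the 7 body peaks, divided by bodies and flanks together. The value for all genes under this rule was not computed, so 1.4 cannot be set against 1.71.

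Single genes spanned a wide range with wide intervals. Ntn4 had 9.53 peaks per Mb of body (0.241 to 53.1), Unc5c 5.41 (0.656 to 19.6), Dscam 5.14 (1.06 to 15.0) and Dcc 0.911 (0.0231 to 5.08). The count of 0 in Unc5d allows up to 6.44 per Mb, that in Ntn1 up to 20.8 and that in Unc5a up to 60.6 (upper ends of the same intervals). These intervals overlap throughout, so no order among the genes can be read from them at this number of peaks.

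**Figure D3:**
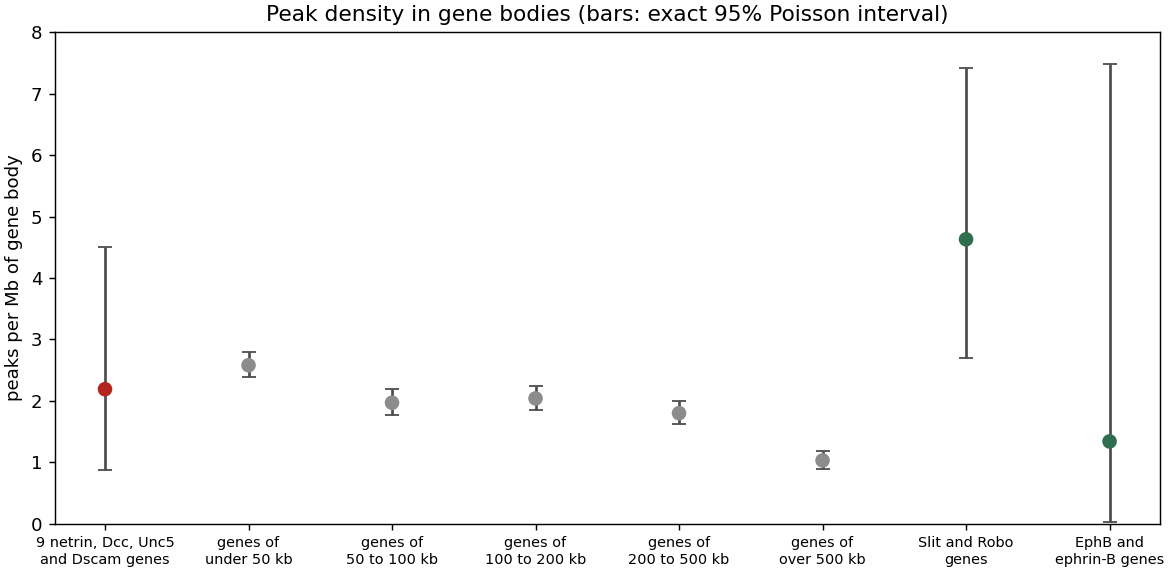
Peaks per Mb of gene body (y axis) for the 9 genes, for protein-coding genes in 5 length classes, and for the Slit and Robo genes and the EphB and ephrin-B genes. Points are counts divided by length and bars are exact 95% Poisson intervals. The interval of the 9 genes, 0.88 to 4.51, spans the values of all 5 length classes.

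The 3 protein-coding genes closest in length to each member served as a plain comparison. Of these 27 genes, 12 held a body peak and 15 a peak in the body or within 100 kb. The genes closest to Dscam were Pde1c with 1 body peak, Ryr3 with 0 and Csmd2 with 1. The genes closest to Unc5d were Rabgap1l with 1, Zfp804b with 0 and Sox6 with 1, and those closest to Dcc were Ctnna2 with 1, Anks1b with 0 and Auts2 with 9. For Unc5c they were Fggy with 0, Ntng1 with 1 and Mbd5 with 1. For Ntn1 they were Nedd9 with 1, Trak1 with 3 and Ptprz1 with 1, so that all 3 held a peak where Ntn1 had none. The genes closest in length to Ntn4 (Pcdhga9, Wdr33 and Polr3b), to Unc5a (Ptpn11, Ptpn21 and Mbd2) and to Unc5b (Snap25, Smad4 and Smad6) all held 0 body peaks.

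No member had a peak centred within 1 kb of either of its own ends, where 4.3% of protein-coding genes did. At that share, a count of 0 in 9 genes does not stand apart. Of all peaks in the list, 26.5% were centred within 1 kb of an end of any annotated gene, against 1 of the 12 member peaks. Peaks in genes over 50 kb with a known strand lay in the first 10% of the body in 19.4% of 1059 cases and in the last 10% in 8.88%. None of the 6 member body peaks with a known strand was in the first 10%, while the Ntn4 peak and both Unc5c peaks were in the last 10%. Those 3 positions were singled out after they were seen, and the Unc5c peaks are neighbours.

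Promoter sequences (250 bases before and 50 after a start site, RefSeq, GRCm38.p6) were matched for Ntn4, Neo1, Unc5a, Unc5b, Unc5c and Dscam, and not for Ntn1, Dcc and Unc5d. The motif searched was the E-box CANNTG, the hexamer class bound by basic helix-loop-helix dimers, which reads the same on both strands. None of the 6 promoters overlapped a peak and none held CANNTG, which was present in 72.3% of 32619 promoters. The 6 are rich in G and C, from 68.3 to 82.7% against a median of 53% over all promoters. In promoters of that range of GC content, 51.4% held CANNTG and 5.45% overlapped a peak. Over all promoters, a peak overlapped 4.69% of those with CAGCTG and 2.37% of those without, while CANNTG as a whole gave 2.56% with and 3.27% without. For CAGATG or its reverse complement CATCTG the shares were close, 2.53% with and 2.8% without. For CATATG they were 1.04% and 2.82%. These shares are not matched for GC content, and a peak overlapped 2.75% of all promoters against the 5.45% in the GC-rich range. The differences were not tested. A lack of these letters says only that they are not in these windows.

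A pair of promoters is printed as examples. Each is given as the 250 bases before the start site on the plus strand, with any E-box in capitals. That of Unc5c (chr3:141465314-141465563) has no peak and no E-box. That of Dapk1 (chr13:60601961-60602210), which encodes a death-associated kinase that binds Unc5b, lies under a 468 bp peak at 60601906 to 60602373 and has an E-box beginning 115 bases and another beginning 38 bases before the start site. The promoter of Fyn, not printed, also overlaps a peak but has 0 E-boxes in the same 250 bases. Its full promoter window holds 1. A link between E-boxes and peaks was not tested.
Unc5c: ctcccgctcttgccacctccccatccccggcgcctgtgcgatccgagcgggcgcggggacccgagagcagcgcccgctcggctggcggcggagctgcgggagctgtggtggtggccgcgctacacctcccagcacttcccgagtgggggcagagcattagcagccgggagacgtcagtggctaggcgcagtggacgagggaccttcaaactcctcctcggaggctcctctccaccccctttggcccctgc
Dapk1: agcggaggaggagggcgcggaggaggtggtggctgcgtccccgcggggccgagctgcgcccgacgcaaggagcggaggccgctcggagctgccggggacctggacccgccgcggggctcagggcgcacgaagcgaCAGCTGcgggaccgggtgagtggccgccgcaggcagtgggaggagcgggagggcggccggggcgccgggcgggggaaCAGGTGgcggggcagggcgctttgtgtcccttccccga

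The 12 peaks had a median width of 386 bp, close to the 381 bp of the whole list, and ranged from the 254 bp Dscam peak to the 1066 bp Unc5c peak. The 667 bp peak in Hcn4 was the next widest, and 6.88% of all peaks were at least as wide. Of the 12, 5 had another peak midpoint within 5 kb, these being the 3 in Hcn4 and the pair in Unc5c. In the whole list 11.4% of peaks (418) had such a neighbour. Width is a property of the call and not a measure of how much Atoh7 was bound.

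**Figure D4:**
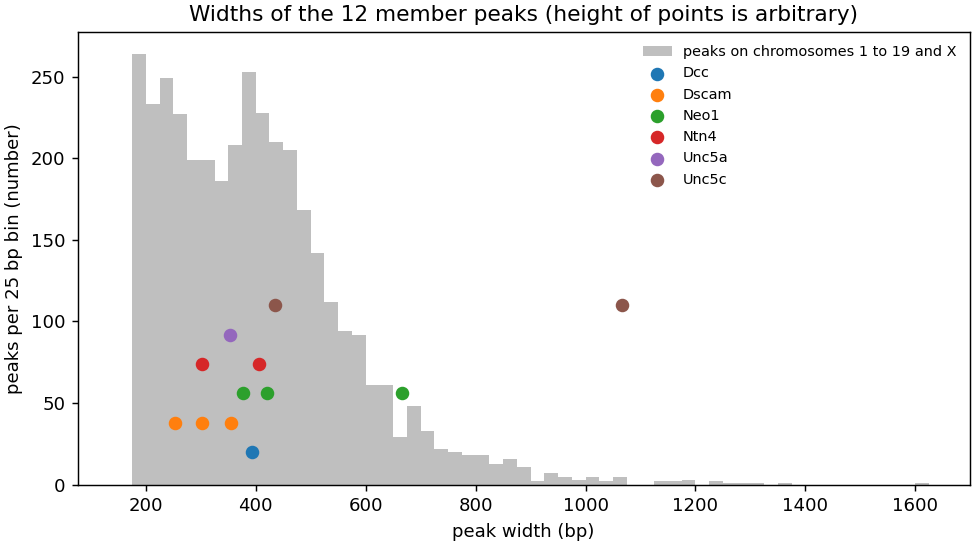
Widths of the 12 peaks (coloured points, by gene) over the distribution of all peaks on chromosomes 1 to 19 and X (grey bars, number of peaks per 25 bp of width). The height of the points carries no meaning. The 1066 bp Unc5c peak stands apart from the other 11, which lie between 254 and 667 bp.

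Beyond the 9 genes, 50 further genes of the pathway in 4 lists were counted by the same rule. A peak lay in the body or within 100 kb of 29 of them, against 34.9% of all protein-coding genes, and in the body of 16, against 7.17%. The lists were not tested, and they hold genes of all lengths. Among the other netrin genes, Ntng1, a membrane-anchored netrin-G, held 1 peak in its 370 kb body, and Ntng2, Ntn3 and Ntn5 had 2, 1 and 1 peaks in their flanks. Among receptor relatives, the Dscam paralogue Dscaml1 and the netrin-G1 ligand gene Lrrc4c held 1 body peak each, and Lrrc4 and Unc5cl had 1 flank peak each. Boc, Cdon, Mcam and Adora2b had none.

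Among ligands and modulators of these receptors, Flrt1, of a family that includes Unc5 ligands, had 6 peaks, 3 of them in its 78.7 kb body. Draxin, a secreted antagonist that binds netrin and Dcc, had 4 peaks, 1 of them in the body. Tspan9 held 2 in its body, and Hjv and Rgmb had 1 each in a flank. Rgma, which encodes a ligand of Neo1, had none within 100 kb. A peak lay in the body or within 100 kb of 5 of these 12 genes in all, against 34.9% of all protein-coding genes.

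Intracellular effectors of Dcc and Unc5 signalling had a peak in the body or flanks in 16 of 26 cases, against 34.9% of all protein-coding genes, and in the body in 10, against 7.17%. Their lengths ran from 6.55 to 503 kb, with a median of 82.1 kb. A body peak was held by 11.4% of genes of 50 to 100 kb and 20.5% of those of 100 to 200 kb. The share was 32.8% at 200 to 500 kb and 46.7% over 500 kb. The count for the effectors is not matched for length. Trio, a guanine nucleotide exchange factor gene, held 2 body peaks. Ablim1, an actin-binding LIM gene, held 1 in its body, and Appl1 had 1 in a flank. A peak within 1 kb of an own end was held by 2 of the 26, against 4.3% of protein-coding genes. These were Fyn, which encodes a kinase acting on Dcc, with a 316 bp peak at 39369710 to 39370025 on chromosome 10 centred 124 bp from the gene end, and Dapk1, with the peak described above, centred 416 bp from the end. Cdc42, Rac1 and Pak1 had no peak within 100 kb.

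Set beside other guidance families, the 9 genes held 2.19 peaks per Mb of body, the 7 Slit and Robo genes 4.63 (2.7 to 7.42, 17 peaks) and the 8 EphB and ephrin-B genes 1.34 (0.034 to 7.48, 1 peak). These intervals overlap and the difference was not tested. A body peak was held by 4 of 9, 3 of 7 and 1 of 8 genes in that order, against 7.17% of all protein-coding genes. The median body lengths were 177, 326 and 21.6 kb, so these counts are not matched for length.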

How the data were processed

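CUT&RUN libraries of embryonic day 14 retina were grouped by their titles. The submitters' processing notes name Bowtie2 (2.3.5), Picard (2.0.1), SAMtools, bedtools and MACS2 (2.2.7.1) and the mm10 build, without settings. The deposited list has a chromosome, start, end, width in bp and name for each peak, per the file headers. Coordinates count from 1. All names begin with Atoh7_R1, and 3517 of 7185 running numbers are absent. If R1 stands for the library titled replicate 1, the positions and widths may come from that library alone. The sources used here do not say whether this is so. For the step that filtered the list, settings are not given in the sources used here.

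Gene bodies were read from RefSeq's annotation of GRCm38.p6, which is the mm10 assembly. Strand and start sites came from RefSeq promoters where a gene matched. Exons and introns are not analysed here. Peaks were counted by midpoint, in the body and within 100 kb. Bodies were merged before densities were taken over all genes. Length classes were bounded at 50, 100, 200 and 500 kb. Intervals are exact 95% Poisson intervals, and peaks that lie together are not independent.

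The 9 genes, the pathway lists and the alternatives were chosen with earlier results of these data known. Named were all members, all of their peaks, nearer genes, the 3 genes closest in length to each, up to 4 genes per list by peak count, and genes with a peak within 1 kb of an own end. The genes closest in length to 1 member are counted but not reported by name here. Other names were chosen after values were seen. Counting was tested on simulated peaks in 200 genes, where all 200 counts matched a direct count. The software was Python 3.11.15 with matplotlib 3.10.9, scipy 1.17.1, pandas 2.3.3 and numpy 2.4.6.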

Additional observations from a re-analysis of the deposited data

How the results depend on the processing

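The peak count of 12 depended on the flank. It was 7 in gene bodies alone, 7 with 10 kb flanks, 7 where the member had to be the nearest protein-coding gene (1.4 per Mb, against 2.4), and 6 with the wider 50% of peaks (1.2 per Mb). It was 10 with 50 kb and 15 with 200 kb flanks, and 12 by any overlap of 1 bp. Genes with a peak numbered 4 to 6 under these settings. Without peaks within 1 kb of any gene end, the share of genes with a body peak was 8.71% at 50 to 100 kb and 17.8% at 100 to 200 kb. It was 29.6% at 200 to 500 kb and stayed at 46.7% over 500 kb. Among genes within 25% of a member's length it was 18.3% in place of 20.5% at 100 to 200 kb, and 38.5% in place of 32.8% at 200 to 500 kb. In the other classes it was 10.6% in place of 11.4% at 50 to 100 kb, and 41.6% in place of 46.7% over 500 kb. No paired analysis was possible because the list has no value per library, and for the same reason no library could be left out. Depth is unknown, and a gene without a listed peak may hold binding that the list does not show.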
